A study of Sus scrofa with 33 samples.

Results

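The nuclear genes for the subunits of the mitochondrial respiratory chain and ATP synthase were examined in the pituitary gland of growing pigs. Members were chosen by name alone: a probe belonged to the set if its gene name on the array, in capitals, began with NDUFA, NDUFB, NDUFC, NDUFS, NDUFV, SDHA, SDHB, SDHC, SDHD, UQCR, CYC1, COX4, COX5, COX6, COX7, COX8 or ATP5. This took 218 of the 60305 probes, under 83 names that stand for 82 genes, where the whole array names 11079 gene symbols. For each gene the probe with the highest mean log2 value in the deposited table was used, which left 80 genes, since NDUFAF1 and COX8B had no probe there. All 80 were among the 47083 probes kept for testing. Of these genes, 73 encode subunits: 33 of complex I, 3 of complex II, 9 of complex III, 13 of complex IV and 15 of complex V. The other 7 carry names of the same form but are no subunits. They are the assembly factors NDUFAF3, NDUFAF4 and SDHAF1, the supercomplex factor COX7A2L, the genes DMAC2 and EMC8 (ATP5SL and COX4NB on the array), and SDHAP3, whose probe has the same 60 bases as the SDHA probe, so that 1 sequence is counted under 2 of the 80 names.

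RNA of 33 pituitary glands was hybridised, 1 array per castrated male pig, from the Large White (LW), a European breed selected for growth, from the Creole (CR), a Caribbean breed adapted to the tropics, and from their cross (F1). Of these, 16 arrays came from pigs slaughtered at a thermoneutral temperature (TN) before the room was warmed, and 17 from pigs slaughtered after several days of heat (HS). The labels give 24 °C for TN and 30 °C for HS, while the text of the series names a higher temperature for HS, so the exact heat is not settled here. The groups held 5 LW TN, 6 LW HS, 5 CR TN, 6 CR HS, 6 F1 TN and 5 F1 HS arrays, or 11 per breed. The day of slaughter and the pigs' age cannot be told apart from temperature, and littermates, which share a breed, could not be modelled because the litter of an array is not given in the sources used here. Which parent breed was the dam of the F1 pigs is not given either. The array called LW HS 3 is Large White by its title but Creole by its breed field, and was analysed by its title.

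Oxidative phosphorylation turns the oxidation of nutrients into ATP. Complexes I and II take electrons from NADH and succinate and pass them to ubiquinone, complex III passes them on to cytochrome c, and complex IV hands them to oxygen, while complexes I, III and IV pump protons that drive complex V, the ATP synthase. Most subunits are encoded in the nucleus and meet, in the inner membrane, a small number of subunits encoded by mitochondrial DNA, and several complex IV subunits exist as isoforms whose use differs between tissues and with oxygen. Hormone-secreting cells depend on this ATP supply for granule synthesis and release.

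The median spot intensity of the arrays ranged from 131 to 165 against a median local background of 20 to 47.5, and 73.5% to 82.2% of spots were well above background. Of the 80 member genes, 78 were well above background on all 33 arrays. The exceptions were NDUFA10, an accessory subunit of complex I, on 27 arrays, and UQCRFS1, the Rieske iron-sulfur protein of complex III, on 32. The probes of these genes read as the protein in their reverse complement, so their weak signal need not be that of the mRNAs. The standard deviation within breed-by-temperature groups had a median of 0.15 on the log2 scale over the members, against 0.20 over all kept probes. The array's slide differed by the F-test (limma, adjusted p under 0.05) in 15 of the 80 genes, or 18.8%, against 14.6% of all probes. Growth hormone (GH1), pro-opiomelanocortin (POMC), prolactin (PRL) and the glycoprotein hormone alpha chain (CGA) were well above background on all 33 arrays. So were vasopressin (AVP) and oxytocin (OXT), which are products of the posterior lobe, although the methods describe the anterior lobe. In such bulk tissue, fewer cells of a type and less RNA per cell cannot be told apart.

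Each gene was read through a probe of 60 bases, and 60 of the 80 chosen probes could be read without a stop codon in at least 1 of the 3 forward frames. The probes of COX4I1, NDUFA10, NDUFB1 and UQCRFS1 read as part of the named protein in their reverse complement. These probes may not measure the mRNA, and the strand of the other chosen probes was not examined. The probes below are shown because the results turn on them or on disagreements between probes of a gene; all come from the deposited scanner files, 5′ to 3′, in lower case. In the NDUFA4L2 probe the capitals mark a stop codon that closes the frame.
NDUFV3: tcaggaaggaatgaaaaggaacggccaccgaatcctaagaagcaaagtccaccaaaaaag
NDUFA3: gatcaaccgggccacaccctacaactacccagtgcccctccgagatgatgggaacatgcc
COX4I2: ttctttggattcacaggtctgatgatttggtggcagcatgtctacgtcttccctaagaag
NDUFA4L2, the third probe: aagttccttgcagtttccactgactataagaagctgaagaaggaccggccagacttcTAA
UQCRC2, the other probe: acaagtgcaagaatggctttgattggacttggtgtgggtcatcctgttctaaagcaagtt

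The first comparison asked whether heat changed the level of these genes. No member passed the test for HS against TN in the fit with breed (limma, adjusted p under 0.05), while 0.0191% of all kept probes did, and 6 of the 80 had an unadjusted p under 0.05, against 8.68% of all probes. The fitted differences were small and mostly above 0: 68 of the 80 genes, or 85%, lay above 0, against 53.9% of all probes, with a median log2 difference of 0.043 against 0.0078. The median standard error was 0.053 and the 95% interval of a gene reached a median of 0.11 to either side. Within slides, the median difference of the subunits was above 0 on 2 of 5 slides and ranged from -0.039 to 0.14, so its direction varied. Here and below, differences within slides are plain differences of array means, with no term for breed or temperature. The groups were not balanced on the slides, so these differences mix breed with temperature. On slide 1, for example, the only TN array was LW and the HS arrays were CR and F1.

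**Figure D1:**
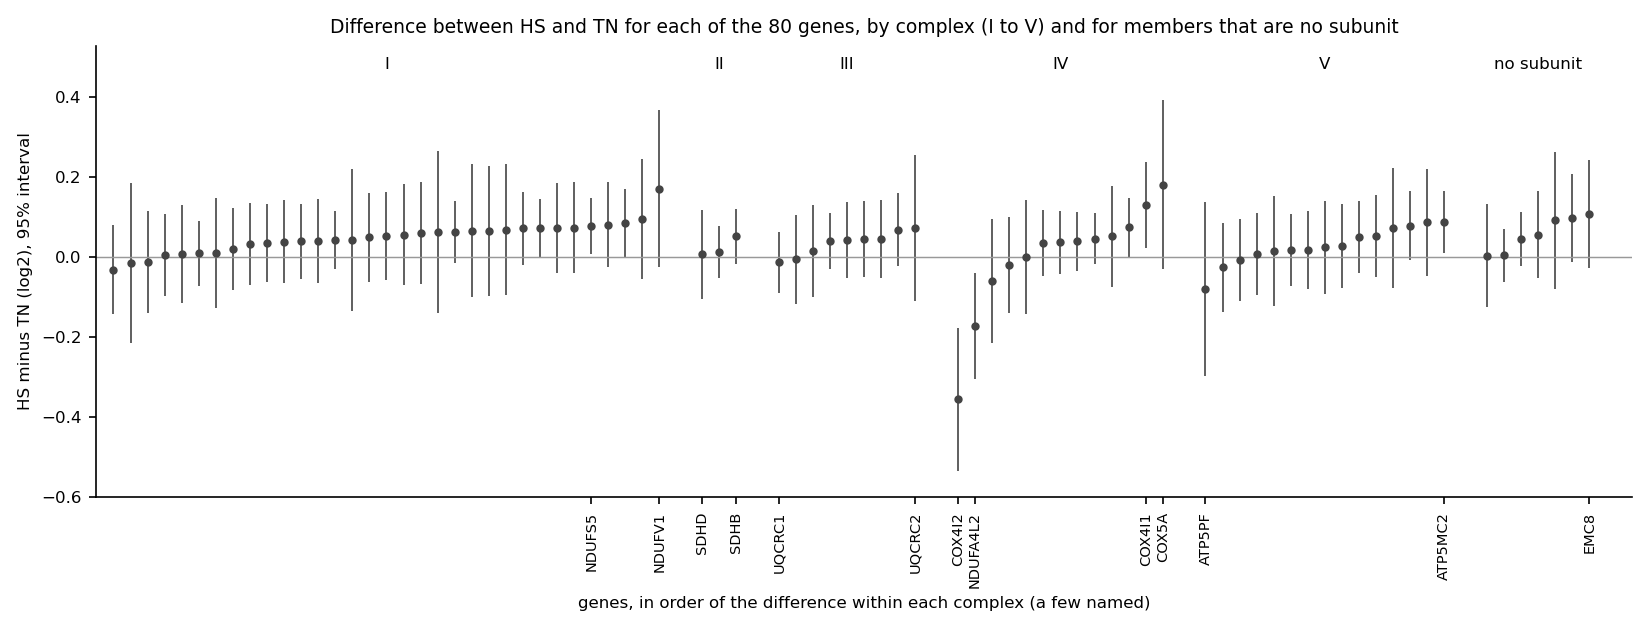
Log2 difference between HS and TN arrays for each of the 80 member genes, grouped by complex, with the 95% interval of the fit and the names of a few genes. Of the 80 points, 68 lie above 0 and none passed the test; COX4I2 has the lowest value, -0.35.

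Among complex I genes, 30 of 33 lay above 0, with a median of 0.054. The 6 core subunits, which hold the flavin and the iron-sulfur clusters, had a median of 0.046, and the 27 accessory subunits one of 0.057. NDUFV1, the core subunit that binds NADH and flavin, had the highest difference of the complex, 0.17 (SE 0.096, adjusted p = 0.644). Its log2 level had a lowest, median and highest value of 7.29, 8.01 and 8.67 on HS arrays and 7.58, 7.92 and 8.28 on TN arrays, so the groups overlapped over the whole TN range. NDUFS5, an accessory subunit, differed by 0.079 (SE 0.035, adjusted p = 0.505) and was above the TN mean of its breed on 14 of 17 HS arrays.

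The other complexes differed as little. The 3 complex II genes ranged from 0.0076 for SDHD, a membrane anchor, to 0.053 for SDHB, the iron-sulfur subunit. In complex III, 7 of 9 genes lay above 0 (median 0.043), from -0.012 for UQCRC1 to 0.074 for UQCRC2, both core proteins of the matrix side. In complex V, 12 of 15 lay above 0 (median 0.025, from 0.010 to 0.049 with 1 array left out), from -0.079 for ATP5PF, a part of the peripheral stalk, to 0.090 for ATP5MC2. ATP5MC2 and its paralogs ATP5MC1 and ATP5MC3 encode the same c subunit, whose ring turns as protons pass, and the 3 genes differed by 0.090, 0.029 and 0.088. The highest of them, ATP5MC2, had an adjusted p of 0.482. The 5 subunits of the catalytic head, where ATP is made, had a median of 0.018.

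Complex IV held both the lowest value, in an isoform of subunit 4, and the highest, in COX5A. COX4I2, the isoform of subunit 4 known from lung and from low oxygen, had a lowest, median and highest log2 level of 8.10, 8.55 and 9.28 on HS arrays and of 8.49, 8.90 and 9.45 on TN arrays. The groups overlapped, but on 16 of 17 HS arrays the value was under the mean of the TN arrays of that breed. The difference was -0.35 (SE 0.088), a 1.28-fold lower level that missed the threshold (limma, adjusted p = 0.141; unadjusted p = 0.000305). The plain difference within slides, which mixes in breed, was below 0 on 5 of 5 slides, from -0.81 to -0.22. With the slide as a fixed block in the fit, COX4I2 passed, at -0.38 (adjusted p = 0.0405), and over all 13 alternatives the adjusted p ranged from 0.0405 to 0.254. Within breeds the difference was -0.37 in LW, -0.22 in CR and -0.47 in F1 (adjusted p = 0.691, 0.83 and 0.757), so none passed.

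COX4I1, the general isoform of the same subunit, lay the other way, at 0.13 (SE 0.053, adjusted p = 0.442). Its lowest, median and highest levels were 9.34, 9.63 and 9.93 on HS arrays and 9.29, 9.52 and 9.85 on TN arrays, which overlapped almost throughout. NDUFA4L2, a paralog of NDUFA4 known as a target of hypoxia signalling, differed by -0.17 (SE 0.065, adjusted p = 0.397), and 13 of 17 HS values were under the TN mean of the same breed. NDUFA4L2 also differed between slides, with the smallest adjusted p of all members in the F-test of slide (limma, 2.48e-06). Its values were 11.34, 11.68 and 12.01 on HS arrays and 11.55, 11.90 and 12.17 on TN arrays, and the 3 probes of the gene gave -0.24 to -0.10. NDUFA4 itself, now counted as a subunit of complex IV, differed by -0.058 (adjusted p = 0.863). COX5A, which binds beside subunit 4, had the highest difference of all members, 0.18 (SE 0.10, adjusted p = 0.65), with HS values of 12.03, 12.85 and 13.19 and TN values of 11.71, 12.54 and 12.94.

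**Figure D2:**
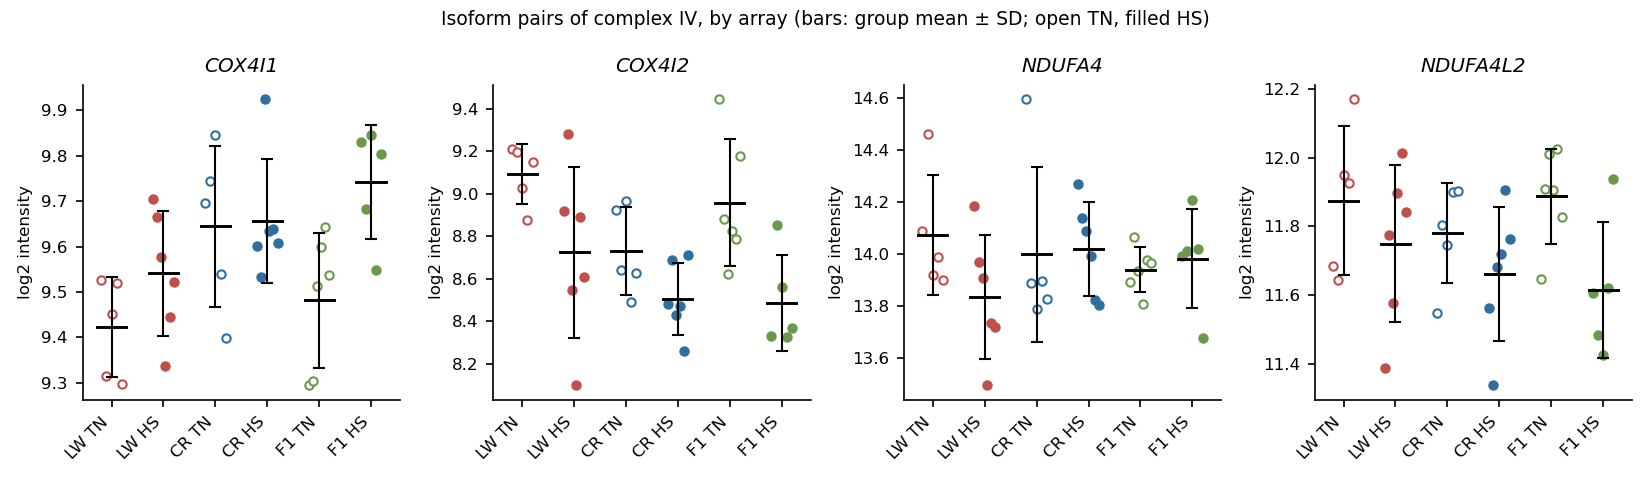
Log2 level of the COX4I1, COX4I2, NDUFA4 and NDUFA4L2 probes by array, in the 6 breed-by-temperature groups, with the mean and SD of each group. The COX4I1 probe lies on the opposite strand and may not give the level of its mRNA. Mean COX4I2 is lower in HS than in TN in each breed, from 9.09 to 8.72 in LW, 8.73 to 8.51 in CR and 8.96 to 8.49 in F1, with overlapping arrays, and none of these differences passed the test.

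Markers of vessels lay on the same side of 0 as COX4I2, and their part in its value was not tested. Of 10 endothelial genes none lay above 0 (median -0.21), with VWF at -0.40 (adjusted p = 0.272), and their summed log2 level ran from 14.49 to 16.12 on TN and from 14.32 to 15.18 on HS arrays. Of 9 stromal genes none lay above 0 either (median -0.29). RGS5 and PDGFRB, known from pericytes, differed by -0.46 (adjusted p = 0.251) and -0.29 (adjusted p = 0.409). Of 7 blood genes 1 lay above 0, and the beta globin HBB was called lower in HS, by -1.15 (SE 0.21, adjusted p = 0.0307). Of 15 leukocyte genes 2 lay above 0 (median -0.10), with none called by limma. An unadjusted p under 0.05 was found for 5 of the endothelial, 6 of the stromal, 4 of the blood and 3 of the leukocyte genes. It was found for 1 hormone cell gene. Over all probes 8.68% had an unadjusted p under 0.05 and 0.0191% were called. The 12 hormone cell genes had a median of 0.023.

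Whether breeds differed in their response to heat was tested by the interaction. None of the 80 genes passed it (limma), nor did any of all kept probes (0%), and 1 had an unadjusted p under 0.05, against 4.29% of all probes. That gene was NDUFB1, an accessory subunit of complex I (unadjusted p = 0.00205, adjusted p = 0.925). Its probe lies on the opposite strand and may not measure its mRNA. No member passed within any breed, where again 0% of all probes did, while 5, 4 and 3 had an unadjusted p under 0.05 in LW, CR and F1, against 6.76%, 5.88% and 5.71% of all probes. Differences above 0 were found for 59 of 80 genes in LW, 67 in CR and 48 in F1, or 73.8%, 83.8% and 60%, against 51.7%, 51.1% and 52.9% of all probes. Their medians were 0.036, 0.072 and 0.018.

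The mean deviation of the 73 subunits from their mean over the arrays gave each array a level. These levels were -0.014 ± 0.056 in LW TN and 0.015 ± 0.128 in LW HS, -0.048 ± 0.047 in CR TN and 0.016 ± 0.050 in CR HS, and 0.0075 ± 0.022 in F1 TN and 0.016 ± 0.070 in F1 HS (mean ± SD, n = 5 or 6). The LW HS arrays spread most, from -0.15 to 0.18. On LW HS 1, 64 of the 73 subunits were above their own mean, and on LW HS 5 only 12. LW HS 4 held the lowest of all 33 values in 16 of the 80 genes, and LW HS 1 the highest in 17, so the level of many members moved together from array to array. For complex I the group level was -0.067 ± 0.056 in CR TN and 0.013 ± 0.062 in CR HS, and for complex V -0.052 ± 0.062 and 0.031 ± 0.067. Complex III had -0.055 ± 0.086 and 0.026 ± 0.067 in the same groups, and complex IV 0.0055 ± 0.037 and 0.00031 ± 0.029. Other breeds did not all show such a rise. Complex V had 0.0040 ± 0.040 in F1 TN and -0.012 ± 0.117 in F1 HS. Complex III had -0.020 ± 0.036 in LW TN and -0.027 ± 0.122 in LW HS.

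**Figure D3:**
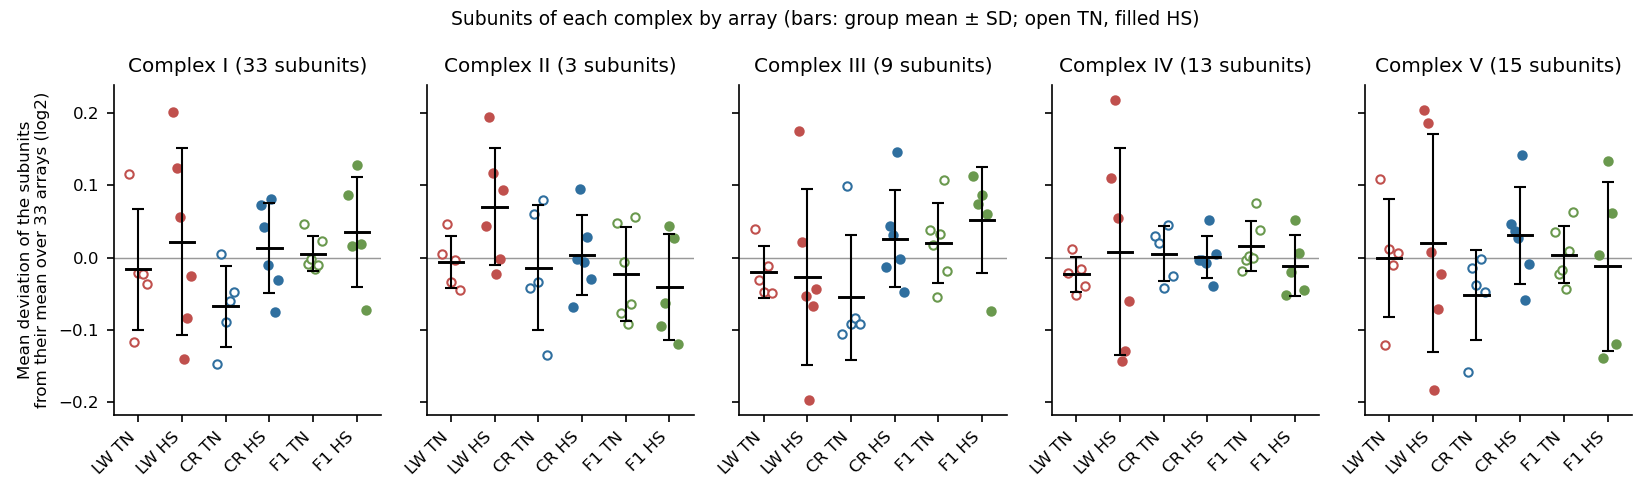
Mean log2 deviation of the subunits of each complex from their mean over the 33 arrays, by array, with the mean and SD of the 6 groups (open TN, filled HS). Group means stay close to 0 in the 5 panels and the arrays of the groups overlap, with the LW HS arrays spread most over all subunits, from -0.15 to 0.18.

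The second set of comparisons asked how the breeds differed, with temperature in the fit. The 3 breed comparisons share arrays and are not independent. For LW against CR, 3 of the 80 genes were called, against 6.53% of all probes, and all 3 were accessory subunits of complex I with a higher level in LW. For F1 against CR, 6 were called (4 higher and 2 lower in F1), against 6.66% of all probes, and for F1 against LW 1 was called, against 1.43%. With 1 array left out these counts ran from 1 to 5, 2 to 9 and 0 to 4, and with the slide as a fixed block 10 were called for F1 against CR. An unadjusted p under 0.05 was found for 9, 25 and 13 members, against 18.4%, 21.5% and 13.7% of all probes in the same order. The arrays of every member gene overlapped in these 3 comparisons, while those of 0.278%, 0.123% and 0.0319% of all probes did not. The median difference of the members was 0.017, 0.031 and 0.035, and with 1 array left out it ran from 0.0034 to 0.030, 0.015 to 0.044 and 0.022 to 0.041. Differences above 0 were found for 46, 48 and 49 of the 80 genes, against 49.5%, 53.3% and 54.6% of all probes.

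NDUFV3, an accessory subunit beside the flavin site of complex I, differed most. Its lowest, median and highest log2 levels were 11.36, 11.88 and 12.03 in LW, 10.65, 11.38 and 11.76 in CR and 11.20, 11.69 and 12.14 in F1. All 11 LW arrays lay above the CR mean, although the ranges overlapped. The level was 1.48-fold higher in LW than in CR (log2 difference 0.57, SE 0.12, adjusted p = 0.00264) and 1.39-fold higher in F1 than in CR (0.47, SE 0.12, adjusted p = 0.0167). Both calls held when any 1 array was left out, with adjusted p up to 0.00616 and 0.0386. Over the 5 slides the plain difference from CR, which mixes in temperature, ran from 0.44 to 0.67 in LW and from 0.071 to 0.70 in F1.

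NDUFA9, an accessory subunit at the junction of the matrix and membrane arms, was also lowest in CR. Its values were 12.45, 12.79 and 13.01 in LW, 12.17, 12.48 and 12.75 in CR and 12.54, 12.89 and 13.05 in F1, where all 11 arrays lay above the CR mean. It was 1.27-fold higher in F1 than in CR (0.35, SE 0.083, adjusted p = 0.0102) and 1.22-fold higher in LW than in CR (0.28, SE 0.083, adjusted p = 0.0325). The F1 call held without any 1 array. The LW call was lost without LW HS 1, LW HS 2, LW HS 3, LW TN 3, LW TN 4, CR HS 3, CR HS 4 or CR HS 5 (adjusted p up to 0.0647), and with LW HS 3 taken as Creole (adjusted p = 0.204).

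NDUFC1, a small membrane subunit, was 1.18-fold higher in LW than in CR (0.24, SE 0.074, adjusted p = 0.0441), with values of 12.15, 12.52 and 12.77 in LW and 11.93, 12.32 and 12.49 in CR. The groups overlapped widely, and the call was lost without any of 16 arrays (adjusted p up to 0.0914), LW HS 3 among them, with the processed intensity, without the filter on dim probes and with LW HS 3 taken as Creole. Another probe of the gene gave 0.29 (adjusted p = 0.0517). The remaining 2 genes called higher in F1 than in CR differed by less. NDUFA3, an accessory membrane subunit, was 1.15-fold higher (0.20, SE 0.062, adjusted p = 0.0439; F1 12.94, 13.16 and 13.38, CR 12.82, 12.93 and 13.19). NDUFS3, a core subunit of the matrix arm, had a difference of 0.14 (SE 0.044, adjusted p = 0.0481; F1 12.43, 12.50 and 12.61, CR 12.15, 12.36 and 12.58). These calls were lost without any of 15 and 24 arrays, with adjusted p up to 0.0983 and 0.0987. Both were also lost with the processed intensity, without the filter on dim probes and with LW HS 3 taken as Creole, and NDUFS3 with LW HS 3 left out and with the mean of all probes of each gene as well.

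The 2 genes called lower in F1 than in CR varied widely among F1 arrays. NDUFS4, an accessory subunit needed for a complete matrix arm, ran from 11.74 over a median of 12.60 to 13.19 in F1 and from 12.90 over 13.01 to 13.28 in CR. The difference was -0.42 (SE 0.12, adjusted p = 0.0295), a 1.34-fold lower level, and 8 of 11 F1 arrays lay below the CR mean. The 5 F1 HS arrays alone ran from 11.74, on F1 HS 2, over a median of 12.53 to 13.19. The call was lost without F1 HS 2, F1 HS 5 or CR HS 3 (adjusted p up to 0.0637). COX5A ran from 11.71 over 12.44 to 12.91 in F1 and from 12.49 over 12.89 to 13.19 in CR, with 10 of 11 F1 arrays below the CR mean. It was 1.36-fold lower in F1 (-0.44, SE 0.13, adjusted p = 0.0306), and the call was lost without F1 HS 1, F1 HS 2, F1 HS 5, F1 TN 1 or CR TN 5 (adjusted p up to 0.0657). With the processed intensity neither passed, at adjusted p = 0.0814 for NDUFS4 and 0.0829 for COX5A.

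F1 HS 2 held the lowest of all 33 values in 9 of the 80 genes and the highest in 6. Besides NDUFS4, it was lowest for the stalk subunit ATP5PF, at 11.82. ATP5PF did not pass in F1 against LW (-0.43, adjusted p = 0.0919) or against CR (-0.38, adjusted p = 0.0755), although 10 of 11 F1 arrays lay below the mean of either breed.

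The gene called in F1 against LW was UQCRC2, a core protein of complex III. Its values were 11.69, 12.24 and 12.48 in F1 and 11.50, 11.86 and 12.10 in LW, and it was 1.34-fold higher in F1 (0.42, SE 0.11, adjusted p = 0.041). The plain difference within slides, which mixes in temperature, was above 0 on 5 of 5 slides. The call was lost without any of 13 arrays (adjusted p up to 0.0847), LW HS 3 among them. It was also lost with the processed intensity, without the filter on dim probes and with LW HS 3 taken as Creole. The other probe of the gene, printed above, gave 0.079 (adjusted p = 0.873), and the mean of the probes did not pass (adjusted p = 0.262), so the difference rests on the chosen probe. SDHD, an anchor of complex II, had a difference of -0.22 (adjusted p = 0.0828). Its 9 probes all lay below 0 in F1 against LW, from -0.54 to -0.21, and 1 of the others passed, at -0.47 (adjusted p = 0.0394).

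**Figure D4:**
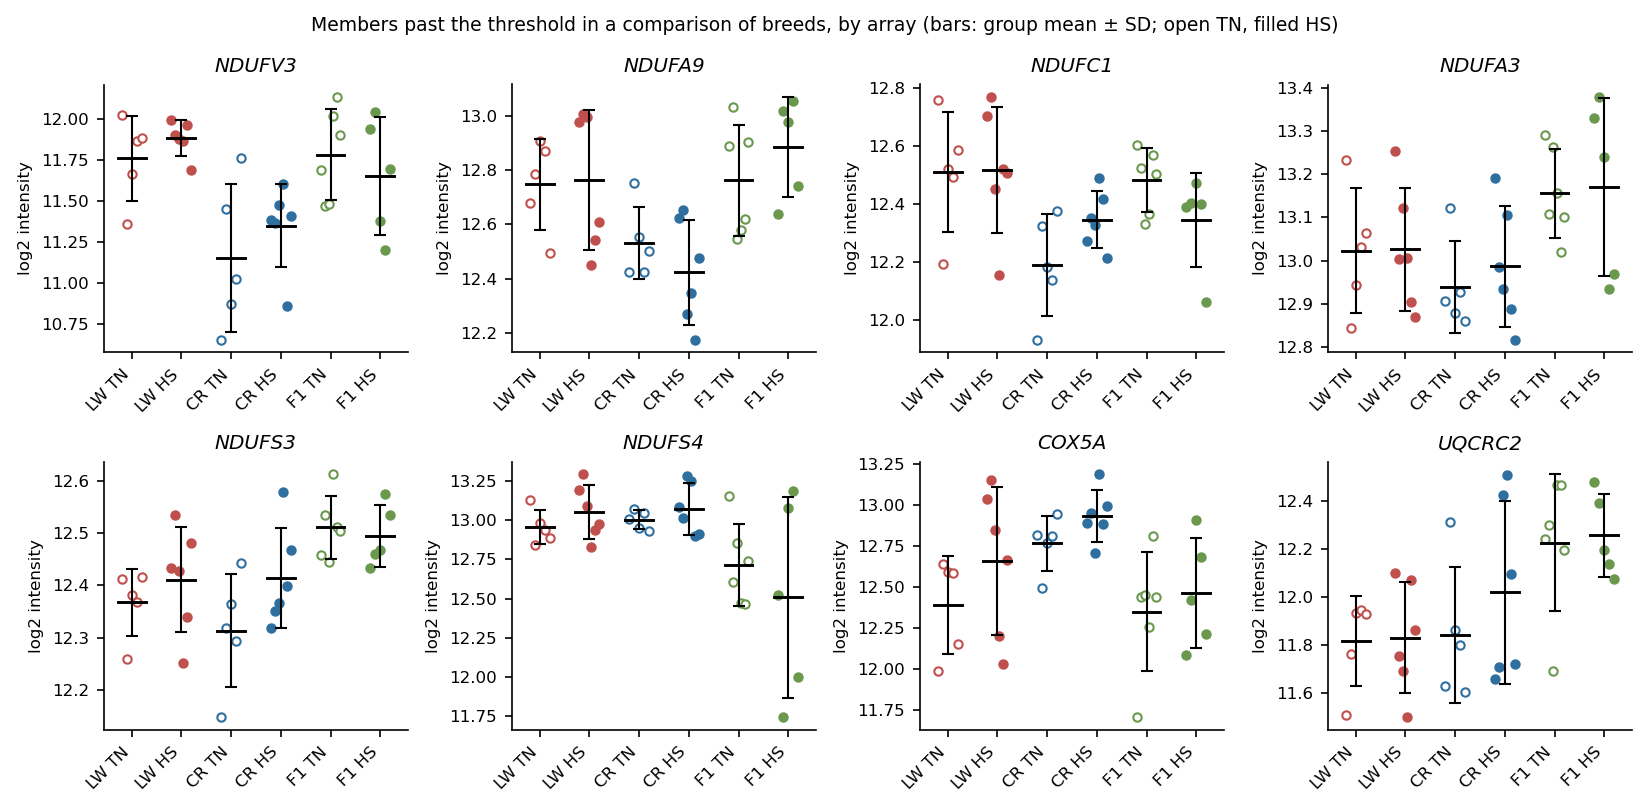
Log2 level of the 8 genes called in a breed comparison (NDUFV3, NDUFA9, NDUFC1, NDUFA3, NDUFS3, NDUFS4, COX5A and UQCRC2) by array, with breeds and temperatures apart. The arrays of the breeds overlap for each gene, and the F1 arrays spread widely for NDUFS4, from 11.74 to 13.19, and COX5A, from 11.71 to 12.91.

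Outside complex I, no gene passed for LW against CR. COX7C, a small subunit of complex IV, had the smallest adjusted p there, with a difference of -0.26 (SE 0.086, adjusted p = 0.064; LW 14.81, 15.14 and 15.65, CR 15.01, 15.51 and 15.62). Its 3 probes gave -0.28 to -0.18, and 1 of them passed, at -0.28 (adjusted p = 0.0216). The highest and lowest complex IV genes were COX4I2, at 0.28 (SE 0.11, adjusted p = 0.117), and COX5A, at -0.32 (SE 0.13, adjusted p = 0.135). SDHB differed by 0.12 (SE 0.041, adjusted p = 0.0853), with 11 of 11 LW arrays above the CR mean, but its 9 probes ran from -0.075 to 0.12, only 3 of the 8 others lay on the same side of 0, and the mean of the probes gave 0.021 (adjusted p = 0.937). The highest and lowest complex III genes were UQCR11, at 0.073, and UQCRFS1, at -0.12, and in complex V they were ATP5PO, a stalk subunit, at 0.12, and ATP5F1C, the central shaft, at -0.087, none of which passed. The UQCRFS1 probe lies on the opposite strand and may not measure its mRNA.

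Probes of the same gene did not always give the same answer. Of the 41 genes with more than 1 probe, all probes lay on the same side of 0 in 26 for HS against TN, 28 for LW against CR, 26 for F1 against LW and 27 for F1 against CR. NDUFA4L2 was the widest case in LW against CR. The chosen probe gave 0.091 and did not pass, another, which shares 48 bases with it, gave 0.65 (adjusted p = 0.000258), and the remaining probe gave 0.25 (adjusted p = 0.023). RGS5, the pericyte marker, was called higher in LW than in CR as well (0.72, adjusted p = 0.00757), and so was the endothelial receptor KDR (0.94, adjusted p = 3.93e-05), while the collagen gene COL1A1 was called lower (-0.61). The lists they come from did not lie on 1 side: of 9 stromal genes 2 lay above 0, with 1 called higher and 4 lower, and of 10 endothelial genes 6 lay above 0, with 2 called higher, against 49.5% of all probes above 0 and 6.53% called. PDGFRB was at -0.0080 and VWF at -0.16, and neither passed. In F1 against CR, 1 of 9 stromal genes lay above 0 (median -0.24), with 4 called lower. Of 10 endothelial genes 3 did, with 1 called each way, where 6.66% of all probes were called and 53.3% lay above 0. In F1 against LW, 2 of 10 endothelial genes lay above 0 (median -0.27), with 1 called lower. Of 15 leukocyte genes 4 did, with 2 called lower, where 1.43% of all probes were called and 54.6% lay above 0. The part of these markers in the values of the members was not tested.

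The F1 mean lay above both parent breeds for 34 of the 80 genes, or 42.5%, below both for 17, or 21.2%, and between them for 29, or 36.2%. Over all probes the shares were 36.9%, 29% and 34%. By complex, the F1 mean lay above both for 18 of 33 genes in complex I and 5 of 9 in complex III. It did so for 6 of 15 in complex V, 4 of 13 in complex IV and 0 of 3 in complex II.

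Complexes I, III, IV and V also hold 13 subunits encoded by mitochondrial DNA, measured by other probes of the same arrays. Between F1 and CR, 8 of these 13 were called higher in F1 by the brightest probe of each gene. Of all 129 probes of the 13 genes, 93 were called higher and 1 lower, where 6.66% of all probes were called in either direction. ND6, a membrane subunit of complex I, had log2 levels of 15.45, 15.66 and 15.98 in F1 and of 14.46, 14.73 and 15.37 in CR, so that no F1 array reached down to a CR array. Its difference was 0.83 (SE 0.12, adjusted p = 9.15e-05). ND3, of the same complex, did not overlap either, with 16.63, 16.79 and 17.07 in F1 and 15.97, 16.20 and 16.56 in CR, and differed by 0.56 (adjusted p = 0.000233). Of the 3 probes of ND3, 2 were called higher and the remaining one lay below 0. Over all probes, 0.123% did not overlap in this comparison. The other, dimmer ND6 probe was called in the opposite direction, at -0.76 (SE 0.15, adjusted p = 0.00183), so the direction for ND6 rests on the chosen probe. The other 6 genes called higher were CYTB of complex III (0.37), COX3 of complex IV (0.32), ATP8 of complex V (0.47) and ND1, ND2 and ND5 of complex I (0.30, 0.43 and 0.46). The brightest probes of COX1, COX2, ND4 and ND4L lay between -0.031 and 0.032 and that of ATP6 at 0.15 (adjusted p = 0.0778), and none passed. Over all their probes, however, 17 of 25 were called higher for COX1 (median 0.21), 3 of 5 for COX2 (median 0.59) and 9 of 10 for ATP6 (median 0.36), against 1 of 11 for ND4. The median over the 13 was 0.32, against 0.031 for the nuclear members. Most stromal genes lay below 0 in the same comparison, as given above, and their part in these values was not tested.

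For LW against CR all 13 lay above 0 (median 0.12) and ND6 was called higher in LW, at 0.40 (SE 0.12, adjusted p = 0.0384), while its other probe lay at -0.41 (adjusted p = 0.0936). Of the 129 probes, 125 lay above 0 and 13 were called higher, where 6.53% of all probes of the array were called in either direction, among them 4 of COX1, 3 each of COX2 and COX3 and 2 of CYTB. For F1 against LW, 9 of 13 lay above 0 (median 0.21) and none was called (limma), with 7 at an unadjusted p under 0.05. Of the 129 probes, 109 lay above 0 and 20 were called higher, where 1.43% of all probes were called, among them 10 of the 20 of ND1 and 6 of the 13 of ND2. In HS against TN all 13 lay below 0 (median -0.064), the side opposite to most nuclear members, with 0 called by limma and 0 at an unadjusted p under 0.05. Within slides the median plain F1 against CR difference, which mixes in temperature, ran from 0.13 to 0.45 on the 5 slides. As background, most mitochondrial genes are transcribed together on long precursors, so the 13 genes are not all independent of each other.

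**Figure D5:**
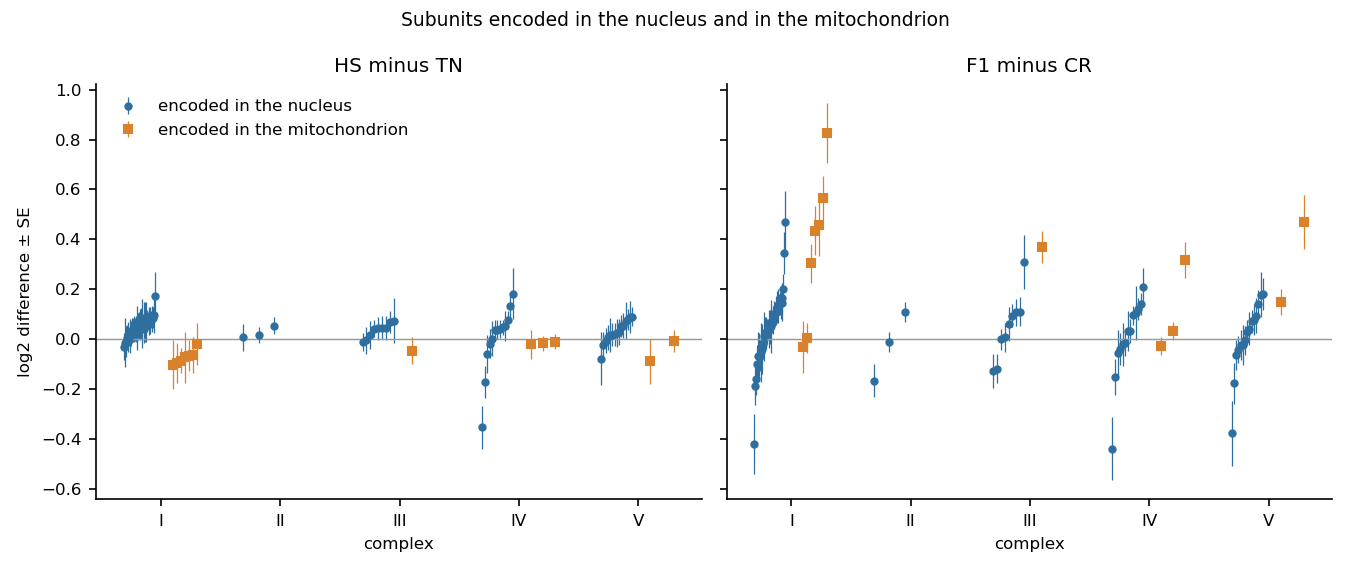
Log2 difference with its SE of nuclear subunits (circles) and mitochondrially encoded subunits (squares) of each complex, for HS against TN and for F1 against CR. In F1 against CR the median is 0.32 for the 13 mitochondrial genes, each by its brightest probe; in HS against TN all 13 lie below 0, with a median of -0.064.

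Genes that serve the chain were read from lists beside the members. Of 19 measured assembly and biogenesis factors, mostly for complex IV, none was called in any of the 4 comparisons (limma), with 1, 7, 4 and 6 at an unadjusted p under 0.05 in HS against TN, LW against CR, F1 against LW and F1 against CR, where 8.68%, 18.4%, 13.7% and 21.5% of all probes were. Of 22 electron carriers and carrier proteins 2 were called for LW against CR and 1 for F1 against CR, and of 18 regulators of mitochondrial biogenesis 1 and 2, against 6.53% and 6.66% of all probes. Of the carriers, cytochrome c (CYCS) was called higher in LW than in CR (0.33, adjusted p = 0.0233), as was C14ORF2, a small protein of the ATP synthase (0.20, adjusted p = 0.0365), and COQ3 of ubiquinone synthesis was called higher in F1 than in CR (0.19, adjusted p = 0.0167). Of the regulators, the coactivator PPARGC1A was called higher in F1 than in CR (0.28, adjusted p = 0.0225). The nuclear receptor PPARD was called lower in LW than in CR (-0.38, adjusted p = 0.011) and in F1 than in CR (-0.31, adjusted p = 0.0426).

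In the pathways that feed the chain, the tricarboxylic acid cycle and glycolysis lists each held 2 of 18 genes called for LW against CR and 1 of 18 for each of the other breed comparisons, against 6.53% of all probes for LW against CR, 1.43% for F1 against LW and 6.66% for F1 against CR. In the tricarboxylic acid cycle list, which also holds pyruvate dehydrogenase, IDH3A was called higher in LW than in CR (0.21, adjusted p = 0.00667) and SUCLG2 lower (-0.39, adjusted p = 0.00119). SUCLG2 was called higher in F1 than in LW (0.47, adjusted p = 0.00158), and PDHA1, of pyruvate dehydrogenase, lower in F1 than in CR (-0.58, adjusted p = 0.0232). Of 18 glycolysis genes, TPI1 was called higher in LW than in CR (0.48, adjusted p = 0.00398) and in F1 than in CR (0.61, adjusted p = 0.000712). LDHA was called higher in LW than in CR (0.52, adjusted p = 0.000516) and lower in F1 than in LW (-0.40, adjusted p = 0.0294). No gene of these lists was called for HS against TN, where 0.0191% of all probes were. Of the carriers 1, of the regulators 1, of the cycle 0 and of the glycolysis genes 2 had an unadjusted p under 0.05 (limma), against 8.68% of all probes.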

How the data were processed

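Pituitary RNA of 33 pigs was measured on Agilent one-colour arrays, and the deposited scanner files hold spot intensity values that the authors made with Feature Extraction 10.10.1.1. The methods name a mouse array, but also a porcine one, and the files hold pig probes. The authors also deposited a table of normalized log2 values for 45667 probes, which was used to choose the probe of each gene and as an alternative. Here the median spot intensity was taken without background correction, control spots and outlier-flagged spots were left out, and the arrays were quantile normalized, set to log2 and averaged over spots of a probe. For the chosen probes the result differed from the table by a median of 0.0069. A probe was kept if the scanner software called it well above background on 75% or more of the arrays of any group. Limma 3.58.1 in R 4.3.3 was fitted to all kept probes with breed and temperature, or with group means for effects within breeds and the interaction, with Benjamini-Hochberg adjustment over all probes and a threshold of 0.05. The pen, slaughter day and parents that the study modelled are not in the labels and were not fitted.

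Members, gene lists and tests were chosen with earlier results of these data known. Named genes were those called in a comparison, the highest and lowest subunit of each complex for HS against TN and LW against CR, and isoform pairs; an item of this rule is not reported here. The text also names genes with small p-values or disagreeing probes, chosen after their values were seen. Alternatives were another background correction, scaling, source, filter, slide as a block, array weights, LW HS 3 taken as Creole or left out, the mean of a gene's probes, subunits alone, and each array left out in turn. Those for the mitochondrially encoded subunits were chosen after seeing the data. Scripts were tested on simulated data. No genome was used, so no coordinates are given.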

Additional observations from a re-analysis of the deposited data

Results flagged for a closer look

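Of 138 groups of arrays examined, 8 (5.8%) held an array far from the others of its group, where chance gives about 1 in 20. The mean deviation of the complex III subunits was 0.099 on CR TN 2, with the nearest CR TN array at -0.084, and -0.074 on F1 HS 5, with the nearest F1 HS array at 0.060. NDUFC1 had a log2 level of 12.06 on F1 HS 5 (nearest 12.39), NDUFV3 of 10.86 on CR HS 5 (nearest 11.37) and UQCRC2 of 11.69 on F1 TN 3 (nearest 12.20). NDUFA3 reached 13.12 on CR TN 2 (nearest 12.93) and COX4I1 9.93 on CR HS 3 (nearest 9.64), and ATP5MC2 was at 15.43 on F1 TN 1 (nearest 15.60). The calls for NDUFV3 held without CR HS 5.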

How the results depend on the processing

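None of the counts and medians of the members and none of the named member genes recomputed here reversed direction under an alternative; list genes and single mitochondrially encoded genes were not recomputed. The number of members called for HS against TN went from 0 to 1 with the slide as a fixed block. For LW against CR it went from 3 to 1 with LW HS 3 taken as Creole, to 1 with it left out and to 5 with array weights. For F1 against LW it went from 1 to 0 with the processed intensity, without the filter on dim probes, and with LW HS 3 taken as Creole or left out, and to 4 with array weights. For F1 against CR it went from 6 to 2 with the processed intensity, 10 with the slide as a fixed block and 11 with array weights. With each array left out in turn, the counts ranged from 0 to 0 for HS against TN, 1 to 5 for LW against CR (changed by over 1.5 times without LW HS 1, LW HS 3, LW HS 4, LW TN 3, LW TN 4 or CR HS 3), 0 to 4 for F1 against LW (16 arrays) and 2 to 9 for F1 against CR (F1 HS 2 or F1 TN 1). The 8 mitochondrially encoded subunits called for F1 against CR became 8 to 10 under 10 alternatives and 7 to 9 without an array. Of 1043 values of single genes, 930 kept their side of the threshold, 105 lost and 8 gained it. These values pool genes called in the main fit, which alone could lose a call, with genes not called there. The share that kept their side is therefore higher than the share of calls that held. The median HS against TN difference of the members stayed between 0.037 and 0.081 under the 13 alternatives and between 0.034 and 0.052 without an array, and 61 to 73 of the genes lay above 0 under those alternatives. Under 12 alternatives each, the median ran from 0.0071 to 0.048 for LW against CR, 0.031 to 0.045 for F1 against LW and 0.027 to 0.070 for F1 against CR. The all-probe median for LW against CR crossed 0 without an array (-0.0032 to 3.8e-05). No paired analysis was possible because the labels give no replicate numbers that pair arrays across groups. The number of arrays, 11 per breed, limits the precision.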
